A study of Mus musculus with 8 samples.

Results

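Of the 1153 repeat names counted in poly(A) RNA of mouse embryonic stem cells (mESCs), 76 belonged to none of the 4 main classes of transposable elements. The members were every counted repeat whose class was not LTR, LINE, SINE or DNA, a rule that uses no measured value. The 76 members comprised 9 rows of class Satellite, 32 of class Unknown, 4 of class Other, 1 of class RNA and 4 rolling-circle elements listed as RC or RC?. The remaining 26 had an uncertain class written with a question mark, namely DNA? (21), LTR? (3), LINE? (1) and SINE? (1).

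Satellites are tandem arrays of short units that fill centromeres and the heterochromatin beside them. In mouse, the major or gamma satellite (GSAT_MM) lies in pericentromeric heterochromatin, where SUV39H1 and SUV39H2 place H3K9me3, and the repeat SYNREP_MM is usually taken as the minor satellite of the centromere. SETDB1 is the H3K9 methyltransferase known for silencing retroelements in mESCs, whereas G9a and GLP place H3K9me2 over broad domains. Transcripts of satellites are often short of poly(A) tails and their arrays are largely missing from genome assemblies, so libraries of poly(A) RNA sample them poorly.

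Every library came from one mESC line, the #33-6 Setdb1 conditional KO line, so each genotype rests on a single clone. WT mESCs received neither agent. UNC0642-treated mESCs received the G9a/GLP inhibitor at 2 µM for 3 days. Setdb1 KO mESCs received 800 nM 4-OHT, the tamoxifen metabolite that triggers deletion of the conditional allele, for 5 days. UNC0642-treated Setdb1 KO mESCs were labelled as 800 nM 4-OHT for 2 days followed by 2 µM UNC0642 for 3 days, and the study's methods give 5 days of 4-OHT for KO cells. WT cells had no 4-OHT, so deletion and exposure to 4-OHT cannot be told apart. By the labels, the KO groups with and without UNC0642 also differ in days of 4-OHT. In comparisons between them, and in the joint change, this cannot be told apart from the inhibitor. Each group had 2 libraries, which the paper calls biological replicates. They are numbered 1 and 2 in the labels, and nothing in the labels says whether a number marks a shared culture.

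Total counts ranged from 11702590 to 26807807 per library. Repeats of all classes held 3.70% and 2.77% of counts in the WT libraries and up to 17.1% in replicate 1 of UNC0642-treated Setdb1 KO mESCs, with replicate 1 above replicate 2 in each group. The replicate 1 libraries stood apart from the replicate 2 libraries, and results below are therefore also given within each replicate number. Setdb1 itself, counted over the whole gene, was at 166 and 140 CPM (counts relative to the library total, without TMM scaling) in WT mESCs, 122 and 104 with UNC0642, 41.7 and 56.5 in the KO, and 49.5 and 35.3 with both. Its log2 fold change in Setdb1 KO mESCs over WT mESCs was -1.59 ± 0.44 (SE; edgeR adjusted p = 0.181, and 0.0164 with the replicate number as a block). All 8 mESC markers were detected in each group (summed level 2628 to 5622 CPM).

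Most of these repeats gave very few reads. Of the 76 members, 5 had 0 counts in all 8 libraries, 49 stayed below 10 counts in every library and 27 reached 10 counts in at least 1 library. The filter on low counts left 23 members for testing among 16245 features. These were 5 of 9 satellites, 6 of 32 of class Unknown, 3 of 4 of class Other, the single RNA repeat, 1 of 4 rolling-circle elements and 7 of 26 of uncertain class. The satellites (CATTC)n and CENSAT_MC had 0 counts in all libraries, which allows up to 0.112 CPM in the deepest library and 0.256 CPM in the shallowest at the floor of 3 counts. MurSAT1 never exceeded 8 counts and SUBTEL_sa never exceeded 3. Intervals and floors here cover counting error only.

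**Figure D1:**
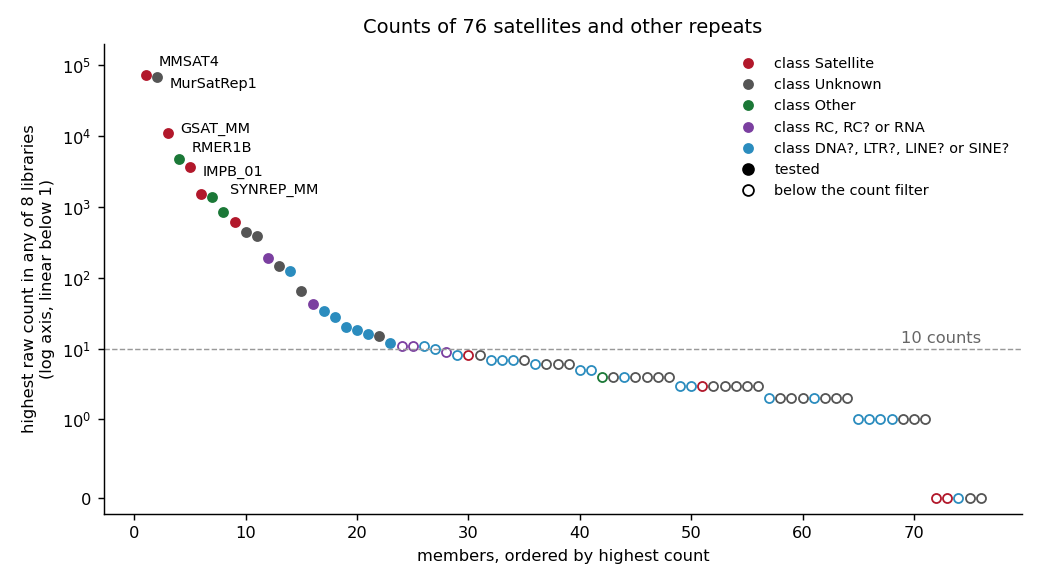
Highest raw count of each of the 76 members in any of the 8 libraries (vertical axis, logarithmic above 1 and linear below), with members ordered by that count and coloured by class. Filled points are the 23 members tested and open points the 53 below the filter, of which 5 lie at 0, while MMSAT4 (73673) and MurSatRep1 (67928) lie highest.

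A pair of repeats held most of the counts of this group. MMSAT4, a mouse satellite outside the major and minor families, took between 41.2% and 49.4% of the members' counts in each library, and MurSatRep1, a murine satellite-like repeat annotated as Unknown, took between 39.2% and 43.3%. GSAT_MM took between 0.301% and 8.93%. Counts were summed over all genomic copies of a name and repeat lengths were not used, so these shares describe reads and do not order the repeats by expression.

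MMSAT4 was higher in all 6 treated libraries than in both WT libraries. Its level, in CPM of the TMM-scaled library size, was 870 and 633 in WT mESCs, 1901 and 1074 with UNC0642, 3118 and 1090 in the KO, and 3160 and 1829 with both. Replicate 1 exceeded replicate 2 in each group, and in the KO by 2.86-fold, more than the 1.37-fold between the WT libraries. MurSatRep1 followed it closely, with 895 and 597 in WT mESCs, 1595 and 923 with UNC0642, 2875 and 1017 in the KO, and 2791 and 1582 with both. The ratio of MMSAT4 to MurSatRep1 counts stayed between 0.972 and 1.19 in the 8 libraries.

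GSAT_MM, the major satellite, differed widely between replicate numbers. Its level was 95.1 and 4.15 CPM in WT mESCs, 156 and 10.2 with UNC0642, 475 and 70.4 in the KO, and 631 and 260 with both. The raw counts behind the lowest values were 115 in WT replicate 2 and 283 in UNC0642 replicate 2. The replicate 1 library of WT mESCs was 22.9-fold above replicate 2, and its 95.1 CPM lay above replicate 2 of the KO. Within each replicate number, however, GSAT_MM followed one order, WT below UNC0642 below KO below both.

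SYNREP_MM was counted mainly in replicate 1. Its raw counts were 76 and 1 in WT mESCs, 201 and 2 with UNC0642, 1510 and 2 in the KO, and 112 and 8 with both. All 4 replicate 2 libraries thus held 8 counts or fewer, and levels there were not compared. In replicate 1, where the counts allow it, the KO was 9.66-fold and UNC0642-treated KO 1.76-fold above WT. The ratio of GSAT_MM to SYNREP_MM counts was 7.43 to 54.3 in the replicate 1 libraries.

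The remaining counted satellites were IMPB_01 and ZP3AR. IMPB_01 was at 89.2 and 44.8 CPM in WT mESCs, 90.1 and 47.1 with UNC0642, 156 and 60.6 in the KO, and 138 and 57.3 with both, so every group overlapped WT and the replicate numbers separated the libraries instead. ZP3AR was at 20.98 and 17.6 CPM in WT mESCs, 21.1 and 13.1 with UNC0642, 25.6 and 20.96 in the KO, and 18.9 and 14.0 with both. All 3 treated groups overlapped the WT libraries for both repeats.

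The RMER1 repeats, rodent interspersed repeats that the annotation lists under class Other, made up the 3 tested rows of that class. RMER1B was at 40.1 and 26.9 CPM in WT mESCs, 51.9 and 41.9 with UNC0642, 145 and 123 in the KO, and 144 and 174 with both. Both KO groups therefore lay above all 4 libraries that retained Setdb1. RMER1A was at 12.8 and 10.0 CPM in WT mESCs, 17.5 and 12.7 with UNC0642, 35.7 and 20.7 in the KO, and 38.7 and 29.6 with both. RMER1C was at 24.6 and 15.6 CPM in WT mESCs, 31.9 and 21.5 with UNC0642, 50.9 and 26.9 in the KO, and 68.8 and 50.2 with both. For RMER1A the KO groups again lay above all 4 libraries with Setdb1, whereas for RMER1C replicate 2 of the KO (26.9 CPM) fell between the UNC0642 libraries.

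**Figure D2:**
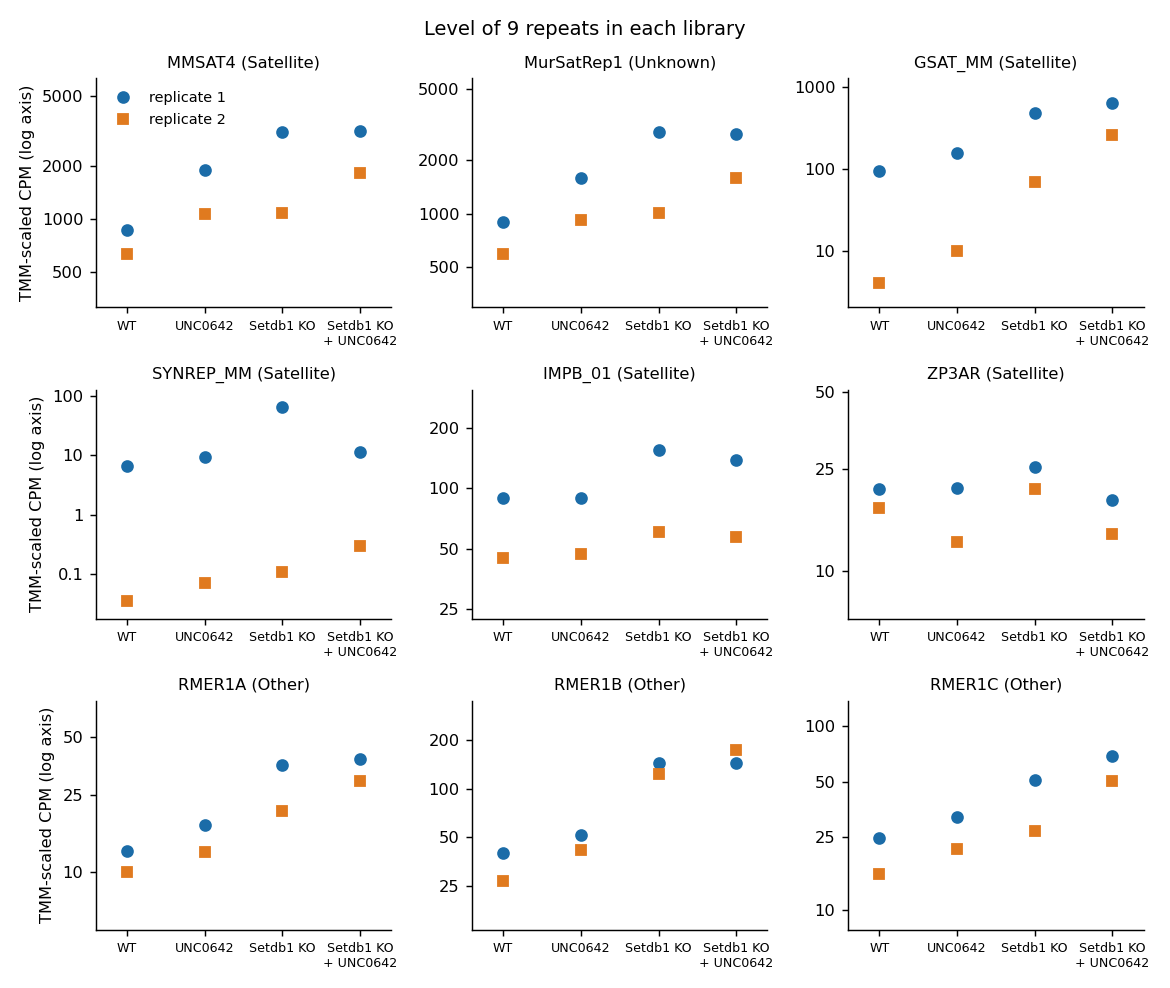
Level of 9 repeats in each of the 8 libraries, as CPM of the TMM-scaled library size on a logarithmic axis, by group, with circles for replicate 1 and squares for replicate 2. Replicate 1 lies above replicate 2 in all 4 groups for 8 of the 9, the exception being RMER1B, where replicate 2 is higher with both treatments (174 against 144 CPM).

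UNC0642 alone was compared with WT to ask whether G9a/GLP inhibition raises these repeats while SETDB1 is present. No member passed the test (edgeR, adjusted p under 0.05 and fold above 2), against 0.0% of all 16245 features called higher. At an unadjusted p under 0.05, 0 members were higher or lower, while 2.96% of features and 2.47% of repeats were higher. DESeq2 called 0 members as well. MMSAT4 had a log2 fold change of 0.98 ± 0.63 (SE), MurSatRep1 0.76 ± 0.63, RMER1B 0.49 ± 0.39 and GSAT_MM 0.75 ± 1.44. With the replicate block no member was called either, against 0.166% of features, and MMSAT4 had the smallest p of the members (log2 fold change 0.93 ± 0.28, edgeR adjusted p = 0.375). With the block 3 were higher at an unadjusted p under 0.05 (MMSAT4, MurSatRep1 and MamRep1151), or 13.0%, against 5.76% of features, and 0 were lower, against 2.77%. MMSAT4 and MurSatRep1 varied together over the libraries (r = 0.995), and MamRep1151 had only 2 and 5 counts in WT and 16 and 16 with UNC0642. The share of repeats is not given for this setting, and the 13.0% is no result about the members. Both UNC0642 libraries lay above both WT libraries for 6 of the 23 members (MMSAT4, MurSatRep1, RMER1B, 7SK, MamRep1151 and Helitron3Na_Mam), or 26.1%, against 13.7% of all features and 23.2% of the 932 tested repeats. MamRep564 alone lay lower without overlap, 1 of 23 against 10.7% of features and 1.18% of repeats. The median log2 fold change of the 23 was 0.24, and -0.02 over all features.

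Setdb1 deletion alone was compared with WT to ask how these repeats respond to loss of SETDB1. No member was called without the block, against 1.11% of all features and 4.94% of repeats called higher, and 4 of 23 were higher at an unadjusted p under 0.05 (RMER1B, RMER1A, MamRep1151 and MMSAT4), or 17.4%, against 7.07% of features and 27.1% of repeats. RMER1B was nearest to the threshold, with a log2 fold change of 2.00 ± 0.40 (SE) and an edgeR adjusted p of 0.0539, and was the 1 member that DESeq2 called (adjusted p = 0.0017). MMSAT4 had 1.49 ± 0.64 (edgeR adjusted p = 0.545), and GSAT_MM 2.46 ± 1.51 (edgeR adjusted p = 0.820).

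With the replicate number as a block, 5 members rose in Setdb1 KO mESCs, or 21.7%, against 3.77% of all features and 20.0% of all tested repeats, so the share was near that of repeats as a whole. They were RMER1B (log2 fold change 2.01 ± 0.27, edgeR adjusted p = 0.0042), RMER1A (1.27 ± 0.26, adjusted p = 0.0324), MMSAT4 (1.33 ± 0.29, adjusted p = 0.0390), MurSatRep1 (1.25 ± 0.27, adjusted p = 0.0423) and GSAT_MM (3.03 ± 0.68, adjusted p = 0.0445). SYNREP_MM missed the threshold (2.96 ± 0.69, adjusted p = 0.0515). Its estimate rests on replicate 1 (76 counts in WT and 1510 in the KO), as replicate 2 held 1 and 2 counts. RMER1B kept the call with the block when any 1 library was left out (adjusted p 0.0034 to 0.0260). The others did not. Without replicate 1 of the KO, the library with 73673 MMSAT4 counts, only RMER1B was called, and the adjusted p was 0.383 for MMSAT4, 0.422 for MurSatRep1, 0.272 for RMER1A, 0.109 for GSAT_MM and 0.947 for SYNREP_MM. MMSAT4 and MurSatRep1 kept the call only without WT replicate 2 or KO replicate 2 (adjusted p 0.0159 to 0.0441), and were otherwise at 0.0671 to 0.422. RMER1A lost it whichever 1 library was left out (0.0599 to 0.272). GSAT_MM lost it also without WT replicate 2 (0.0684) and without KO replicate 2 (0.0908). Both KO libraries lay above both WT libraries for 9 of 23 members, or 39.1%, against 17.5% of all features and 52.7% of repeats, and 0 lay lower, against 13.1% and 0.322%.

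UNC0642-treated Setdb1 KO mESCs were compared with WT for both losses together. RMER1B rose 4.75-fold (log2 fold change 2.25 ± 0.40 SE, edgeR adjusted p = 0.0162), the only member that edgeR called without the block, 1 of 23 against 3.6% of all features and 12.1% of repeats. This call was lost without WT replicate 1 (adjusted p = 0.0938), WT replicate 2 (0.153) or replicate 2 of the treated KO (0.0613). DESeq2 without the block called more members here, as counted with the other settings at the end. In edgeR at an unadjusted p under 0.05, 6 members were higher (RMER1A, RMER1B, RMER1C, MMSAT4, MurSatRep1 and Eulor2A), or 26.1%, against 10.9% of features and 36.1% of repeats. Eulor2A passed the filter on low counts only through the libraries with both treatments. Its place in this and later counts for that group is therefore no support for a rise.

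With the replicate block 6 members rose, or 26.1%, against 9.47% of all features and 37.7% of repeats. The members' share lay below that of all tested repeats, and this difference was not tested. RMER1B rose 4.85-fold (log2 fold change 2.28 ± 0.27, edgeR adjusted p = 0.0013). RMER1C had 1.59 ± 0.25 (adjusted p = 0.0044) and RMER1A 1.58 ± 0.26 (adjusted p = 0.0064). Among the satellite-like repeats, MMSAT4 had 1.68 ± 0.29 (adjusted p = 0.0071), MurSatRep1 1.52 ± 0.28 (adjusted p = 0.0089) and GSAT_MM 4.44 ± 0.74 (adjusted p = 0.0061), against 3.17 ± 1.55 for GSAT_MM without the block (adjusted p = 0.328). RMER1B and GSAT_MM were called whichever 1 library was left out (adjusted p up to 0.0137 and 0.0190). The other 4 lost the call only without replicate 2 of the treated KO (adjusted p 0.0550 for RMER1C, 0.0681 for RMER1A, 0.0835 for MMSAT4 and 0.0949 for MurSatRep1). Both libraries with both treatments lay above both WT libraries for 9 of 23 members, or 39.1%, against 22.3% of all features and 62.0% of repeats. Lower without overlap were 2 (Eulor5A and MamRep564), or 8.7%, against 21.1% of features and 1.72% of repeats.

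**Figure D3:**
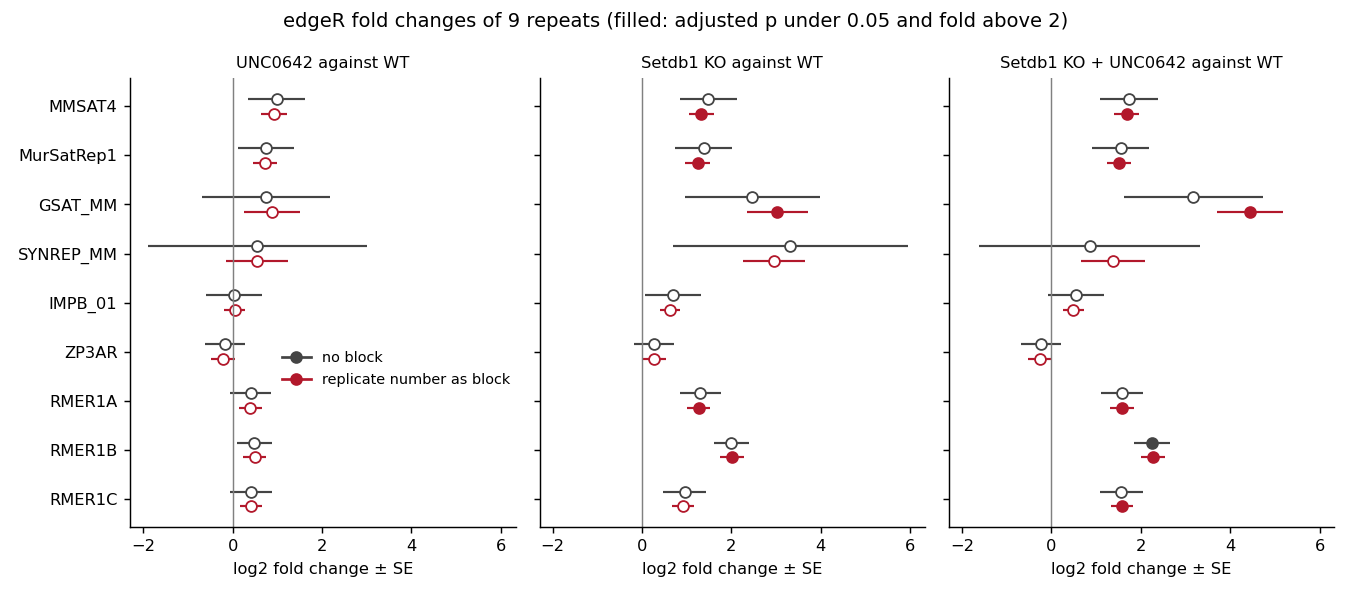
Log2 fold change over WT mESCs of 9 repeats for the 3 treated groups, with bars of 1 SE, from edgeR without (grey) and with (red) the replicate number as a block. Filled points passed the call; in grey this is RMER1B with both treatments (2.25), in red 5 repeats in the KO and 6 with both treatments.

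Within replicate numbers the size of these differences could be read directly. For GSAT_MM the fold of UNC0642-treated KO over WT was 6.63 in replicate 1 and 62.6 in replicate 2, and that of the KO 4.99 and 17.0. For MMSAT4 both treatments gave 3.63 and 2.89, and the KO alone 3.58 and 1.72. For RMER1B both treatments gave 3.59 and 6.46, and the KO alone 3.60 and 4.58. The direction was thus the same in both replicate numbers for these 3, while the GSAT_MM fold differed most in size between them. IMPB_01 was 1.55-fold and 1.28-fold and ZP3AR 0.90-fold and 0.79-fold with both treatments.

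**Figure D4:**
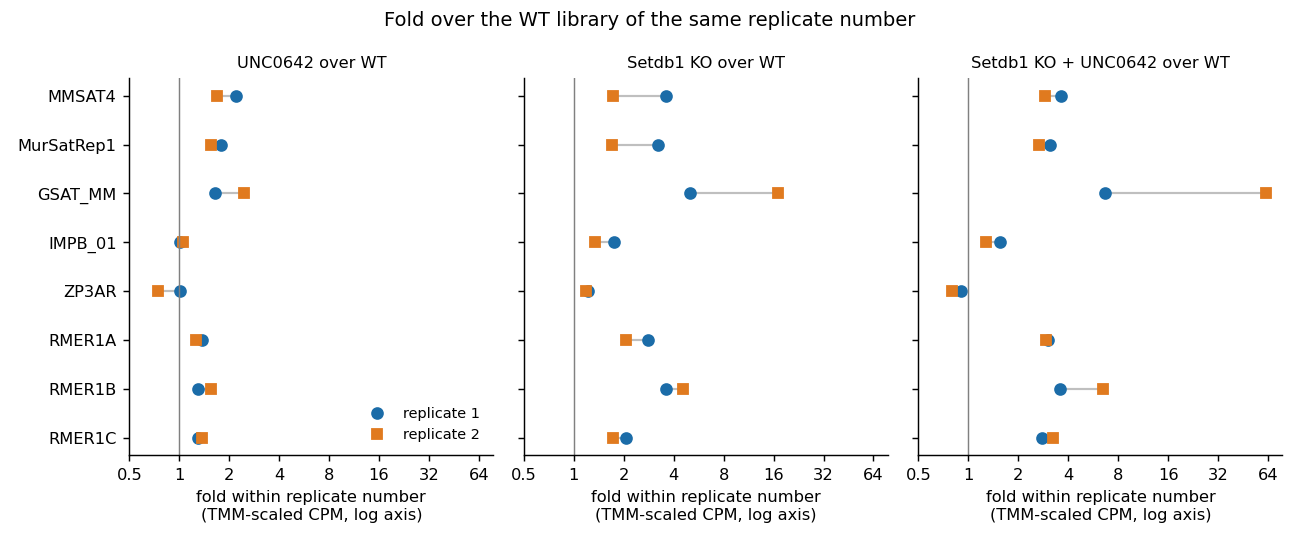
Fold of each treated library over the WT library of the same replicate number for 8 repeats, from TMM-scaled CPM on a logarithmic axis, with circles for replicate 1 and squares for replicate 2. SYNREP_MM is left out because WT replicate 2 had 1 count; GSAT_MM with both treatments spans 6.63 to 62.6, while RMER1A (3.02 and 2.95) and RMER1C (2.79 and 3.21) nearly coincide.

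Adding UNC0642 to the deletion, groups that by the labels also differ in days of 4-OHT, gave no called member, with the block or without (0.0% of all features were called higher without the block, and 0.123% of features and 0.215% of repeats with it). At an unadjusted p under 0.05, 0 members differed without the block, against 2.79% of features and 2.58% of repeats higher, and DESeq2 called 0. Eulor2A alone, which passed the filter only through the libraries with both treatments, did not overlap upward, 1 of 23 against 12.2% of features and 12.8% of repeats. Downward, 4 did not overlap (Eulor5A, MER124, MER131 and ZP3AR), or 17.4%, against 13.3% of features and 5.36% of repeats. With the block, RMER1C was higher at an unadjusted p under 0.05 (log2 fold change 0.66 ± 0.24, edgeR adjusted p = 0.362) and SYNREP_MM lower (-1.57 ± 0.69, adjusted p = 0.465), each 1 of 23, against 5.24% and 5.45% of features. The SYNREP_MM value rests on replicate 1 (1510 counts in the KO and 112 with both), as replicate 2 held 2 and 8 counts. GSAT_MM was 1.33-fold higher in replicate 1 and 3.69-fold higher in replicate 2 (1.41 ± 0.64, edgeR adjusted p = 0.485 with the block).

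Adding the deletion to UNC0642 gave no called member without the block, against 1.13% of features and 5.36% of repeats, with 4 members higher at an unadjusted p under 0.05 (RMER1A, RMER1B, RMER1C and Eulor2A), or 17.4%, against 6.37% of features and 22.7% of repeats. RMER1B again came nearest (log2 fold change 1.76 ± 0.39, edgeR adjusted p = 0.0840) and was the 1 member that DESeq2 called (adjusted p = 0.0072). With the block 4 members rose, or 17.4%, against 3.79% of features and 18.5% of repeats. They were RMER1B (1.78 ± 0.26, edgeR adjusted p = 0.0068), GSAT_MM (3.55 ± 0.70, adjusted p = 0.0259), RMER1C (1.17 ± 0.24, adjusted p = 0.0308) and RMER1A (1.18 ± 0.26, adjusted p = 0.0396). MMSAT4 (0.75 ± 0.28, adjusted p = 0.196) and MurSatRep1 (0.79 ± 0.27, adjusted p = 0.157) were not called here. None of the 4 remained without UNC0642 replicate 1 (adjusted p 0.0680 to 0.379), UNC0642 replicate 2 (0.127 to 0.354) or replicate 2 of the treated KO (0.0658 to 0.253), and RMER1A and RMER1C also lost the call without replicate 1 of the treated KO. Of 23 members, 6 did not overlap upward, or 26.1%, against 16.3% of features and 45.2% of repeats, and 0 did so downward, against 16.7% and 1.93%. These comparisons share libraries with those against WT.

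The joint change was also set against the sum of the single changes, on the log2 scale. No member passed this test with the block or without (edgeR, adjusted p = 1.00 for each of the 9 repeats plotted by library). DESeq2 called 0 members too. MMSAT4 had -0.74 ± 0.88 (SE), GSAT_MM -0.04 ± 2.02 and RMER1B -0.24 ± 0.54. Without the block, MamRep1151, listed as LTR?, was the one member with an unadjusted p under 0.05 (-2.65 ± 1.13, against 0.566% of features lower), while 0 members and 0.185% of features were higher at that p. It came from counts of 2 and 5 in WT, 16 and 16 with UNC0642, 34 and 15 in the KO, and 8 and 14 with both.

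No member was called lower in any comparison by edgeR or DESeq2, with the block or without. Of all features, the share called lower without the block was 0.0% with UNC0642, 0.00616% in the KO and 0.505% with both against WT, and 0.0369% when the deletion was added to UNC0642. With the block these shares were 0.0%, 0.486%, 6.44% and 0.825%, and 0.00616% when UNC0642 was added to the deletion. At an unadjusted p under 0.05 without the block, 0 members were lower in any comparison between groups, against 0.394% of features with UNC0642, 1.63% in the KO and 7.11% with both against WT, 1.79% with both against the KO and 2.7% with both against UNC0642.

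The other 14 tested members, mostly ancient repeats of unclear origin, were low and gave no edgeR call in any comparison, with the block or without. Without the block their log2 fold changes over WT spanned -0.88 to 1.86 with UNC0642, -2.38 to 2.64 in the KO and -1.86 to 4.24 with both, with 7, 11 and 8 of 14 above 0. Eulor2A, an ancient conserved repeat, had 0.73 and 0.59 CPM with both treatments and at most 0.30 CPM elsewhere, and its edgeR adjusted p with the block was 0.0561. It was tested only because these libraries carried it past the filter, so that p is no support for a rise. 7SK, the small nuclear RNA that restrains the elongation factor P-TEFb, has no poly(A) tail, and its row held 32 to 187 counts. 7SK was at 2.79 and 3.64 CPM in WT, 4.98 and 4.06 with UNC0642, 5.12 and 7.98 in the KO, and 4.57 and 6.87 with both, so all treated libraries were above WT on the TMM scale, with an edgeR adjusted p of 0.737 in the KO and 0.494 with both. Without TMM scaling, replicate 1 with both treatments (3.70 CPM) lay below WT replicate 2 (4.02 CPM). The repeats of the Y chromosome, YREP_Mm and CYRA11_Mm, were separated by replicate number (7.02 to 9.74 CPM in replicate 2 and 12.7 to 16.4 CPM in replicate 1 for YREP_Mm).

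The 53 members below the filter summed to 29 to 129 counts per library. Without TMM scaling they were at 2.48 and 2.07 CPM in WT mESCs, 3.34 and 2.60 with UNC0642, 4.81 and 2.98 in the KO, and 5.88 and 3.50 with both, each replicate 2 value lying below its replicate 1 value. Between 17 and 37 of them had any count in a library and no row exceeded 11 counts. UCON names, ancient conserved elements of unknown origin, made up 30 members, of which 2 were tested, and UCON4 alone held 131 to 448 counts. Eulor names made up 15, of which 3 were tested, and summed to 23 to 54 counts per library. A change in single rows of this kind was not detectable at this depth. The rows just inside and outside the filter were Eulor2B, with at most 12 counts, and Helitron1Na_Mam, Helitron1Nb_Mam and MER129, with at most 11.

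The summed share of counts put the rows together. The 9 satellites held 0.106% (95% Wilson interval 0.104% to 0.108%) and 0.0772% (0.0761% to 0.0783%) of all counts in WT mESCs, 0.204% and 0.138% with UNC0642, 0.338% and 0.138% in the KO, and 0.321% and 0.224% with both. All treated libraries lay above both WT libraries. The ratio of group means to WT was 1.86 with UNC0642, 2.59 in the KO and 2.97 with both, each with an exact two-sided permutation p of 0.33, the smallest that 2 libraries against 2 allow. The KO value depended on the replicate, at 3.19 in replicate 1 and 1.78 in replicate 2, whereas both treatments gave 3.02 and 2.90. For all 76 members the ratios were 1.75, 2.48 and 2.75, and without MMSAT4 and MurSatRep1 they were 1.23, 2.58 and 3.06. The satellite share was mostly MMSAT4. Without it the ratios for satellites were 1.22, 2.85 and 3.52, and the UNC0642 and KO groups then overlapped WT.

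Relative to repeats of all classes the order was different. The satellites were 2.87% and 2.79% of repeat counts in WT mESCs, 3.74% and 3.51% with UNC0642, 2.89% and 1.49% in the KO, and 1.88% and 1.96% with both. The ratio to WT of the means was thus 1.28 with UNC0642, 0.774 in the KO and 0.678 with both (exact permutation p = 0.33, 1.00 and 0.33). Without MMSAT4 these ratios for satellites were 0.834, 0.876 and 0.822, and every group overlapped WT. Over the same groups the share of all repeats in all counts stood at 1.45, 3.24 and 4.40 times that of WT. In the fit without the block the median log2 fold change of the members was 0.71 in the KO and 0.54 with both, beside 1.18 and 1.38 for 571 LTR repeats, 0.80 and 0.92 for 144 LINE repeats, 0.62 and 0.51 for 159 DNA repeats, 0.41 and 0.23 for 35 SINE repeats and -0.06 and -0.06 for genes. In these comparisons the members lay below LTR and LINE repeats and above SINE repeats, and only slightly above DNA repeats. With UNC0642 alone the members (0.24) lay below DNA repeats (0.28).

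**Figure D5:**
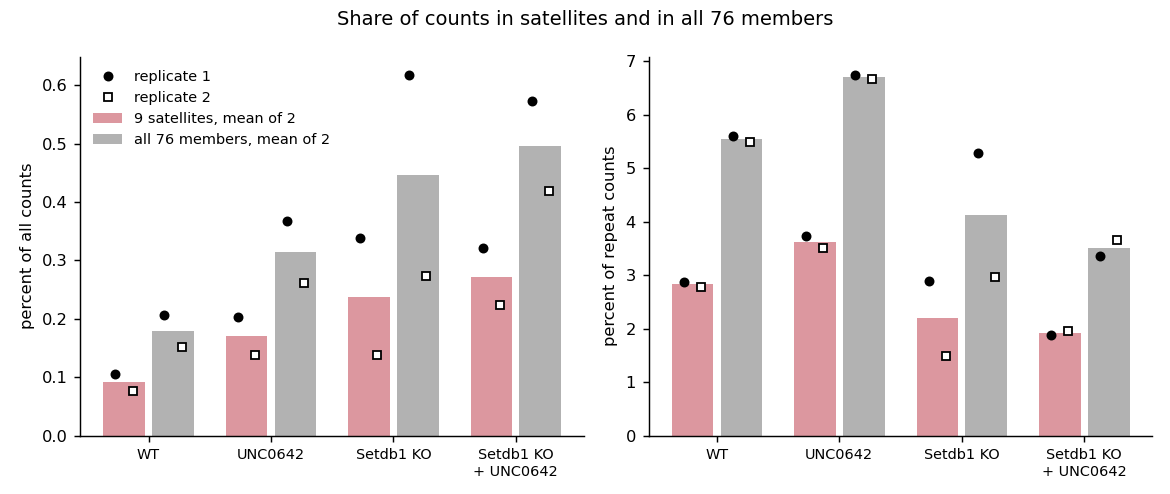
Share of all counts (left) and of repeat counts (right), in percent, held by the 9 satellites and by all 76 members in the 4 groups, with bars for the mean of 2 libraries and points for each library. On the left every treated library lies above both WT libraries, and on the right the satellites with both treatments (1.88% and 1.96%) lie below WT (2.87% and 2.79%).

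Replicate numbers separated many of these repeats. Replicate 1 was higher than replicate 2 in all 4 groups for 14 of the 23 tested members, or 60.9%, against 67.8% of the 932 tested repeats of any class and 24.2% of all features. No member was lower in replicate 1 in all 4 groups. Among marker genes, in CPM without TMM scaling, the 5 fibroblast markers summed to 5.81 and 18.2 CPM in the WT libraries and to between 3.58 and 19.7 CPM elsewhere, and this sum was higher in replicate 2 of every group. Col1a1 and Col1a2 were each higher in replicate 2 of every group, whereas Thy1 was higher in replicate 1 in WT and with both treatments, and Dcn and Lum were at 0 in both WT libraries and higher in replicate 1 with both treatments. With the block, edgeR called Lum higher with both treatments than in WT and with UNC0642 alone. Their part in the satellite levels was not tested.

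Markers of the two-cell-like state, a rare state of mESC cultures known for the Zscan4 genes, moved with the conditions. With both treatments against WT all 8 were called higher by edgeR and by DESeq2, with the block or without. In the KO edgeR called 0 without the block and 5 with it, and with UNC0642 alone it called 0 in either fit, while all 8 were higher at an unadjusted p under 0.05 in each of these fits and DESeq2 called all 8. Their median log2 fold change with UNC0642 alone was 4.83 without the block and 4.41 with it. Their summed level was 9.57 to 31.6 CPM in WT mESCs, 323 to 824 with UNC0642, 160 to 355 in the KO and 734 to 1253 with both, with Zfp352, Tcstv3 and Tdpoz4 at 0 in WT replicate 1. Trophoblast markers (6 genes) summed to 7.92 to 54.4 CPM and endoderm markers (5 genes) to 7.78 to 51.7 CPM over all groups, with Cdx2 and Foxa2 below 1 CPM in every library. With the block, edgeR called Eomes lower with both treatments than in WT and Gata4 lower than with UNC0642 alone. The part of these cells in the repeat levels was not tested, and in bulk RNA more cells of a type and more RNA per cell cannot be told apart.

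Of 32 listed genes that build or regulate pericentromeric heterochromatin, demethylase genes among them, 29 were in the files and tested, and edgeR called 0 in any comparison between groups without the block. At an unadjusted p under 0.05, 3 differed in the KO (Atf7ip and Mbd1 higher, Setdb1 lower), against 7.07% of all features higher and 1.63% lower. With both treatments 5 differed from WT (2 higher and 3 lower, against 10.9% and 7.11% of features). From UNC0642 4 differed (2 higher and 2 lower, against 6.37% and 2.7%). Setdb1 is among the genes lower in each of these. The comparisons that add UNC0642 gave 0, and DESeq2 called 1, Setdb1 with both treatments. With the block 2 rose in the KO, Atf7ip (log2 fold change 1.43, edgeR adjusted p = 0.0339), whose product stabilises SETDB1, and Mbd1 (1.88, adjusted p = 0.0227), a methyl-CpG binding protein, while Setdb1 fell. These were 6.9% of the 29 higher and 3.45% lower, against 3.77% and 0.486% of all features. The share lower in the KO is Setdb1 alone, the gene deleted by design, and is no result about the list. Setdb1 is also counted in the share lower with both treatments below. With both treatments and the block Atf7ip and Mbd1 were again called higher (1.31 and 1.48, adjusted p = 0.0223 and 0.0248) and Setdb1, Ehmt2, which encodes G9a (-1.20, adjusted p = 0.0235), and the demethylase gene Kdm4b (-1.46, adjusted p = 0.0093) were lower, or 6.9% higher and 10.3% lower against 9.47% and 6.44% of all features. Against UNC0642 with the block, edgeR called Setdb1 lower, and DESeq2 called Setdb1 lower and Atf7ip and Mbd1 higher. Suv39h1 (-0.045 in the KO and 0.04 with both, with the block) and Suv39h2 (0.17 and 0.12) were not called. Of 14 genes of the centromere and its assembly factors, 13 were tested and 0 were called in any comparison between groups by edgeR or DESeq2, with the block or without. At an unadjusted p under 0.05, 0 differed without the block, and with it Aurkb, the kinase of the chromosomal passenger complex, was lower in each treated group than in WT. Their median log2 fold change over WT lay between -0.12 and 0.06.

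Likeness of pattern was measured as Pearson's r of log2 CPM over the 8 libraries, given as a description because the libraries share conditions and replicate numbers. Among 16245 features the closest to MMSAT4 were Gm13051 (r = 0.996), MurSatRep1 (0.995) and Zfp534 (0.990). Both genes lie on chromosome 4 of GRCm38, Gm13051 (RefSeq Zfp987) at 146097312 to 146126624 and Zfp534, a KRAB zinc finger gene, at 147673502 to 147702553 on the minus strand. Gm13051 was at 348 and 260 CPM in WT mESCs, 710 and 448 with UNC0642, 1382 and 418 in the KO, and 1265 and 737 with both. The closest to RMER1B were Mrc1 (r = 0.995, chromosome 2), the mannose receptor gene, Rpl39l (0.994, chromosome 16) and F830016B08Rik (0.991). An r above 0.9 was reached by 3.24% of features for MMSAT4 and by 3.25% for RMER1B. Reads were counted per name over all copies, so which copies of MMSAT4 or RMER1B gave the reads, and whether they lie within exons of such genes, was not tested.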

How the data were processed

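Poly(A) RNA-seq of 8 mESC libraries, 2 in each of 4 labelled groups, was analysed. The authors trimmed reads with Trim Galore 0.3.7, mapped them to GRCm38 with TopHat2 and counted them with TEtranscripts, which shares reads with several positions among repeats. The authors deposited unnormalized counts, with 1 row for each gene and each repeat name. Features were filtered with filterByExpr (minimum count 10, minimum total 15), scaled by TMM and fitted with edgeR 4.0.16 (quasi-likelihood, 8 libraries). Benjamini-Hochberg adjustment covered 16245 features (15313 genes and 932 repeats). A call needed an adjusted p under 0.05 and a fold above 2. SE came from the fold and the F statistic. The paper describes 2 biological replicates for RNA-seq. As the labels name no separate cultures, p-values measure the spread between these libraries. Deviations of same-numbered libraries correlated across features at r = 0.310 to 0.673 in all 6 pairs of groups, so the replicate number was taken as a pairing and used as a block in a second fit. Values in every library are given for satellites with at least 10 counts, called members and the 3 most counted others. Likeness was named for the most counted satellite and for the member with the smallest p with both treatments against WT. Fits were tested on simulated data. DESeq2 1.42.0, other scalings, no filter, thinned counts, fits on 4 libraries and leaving out each library were tried. The rule for the members uses only the repeat class, but this set of classes and the gene lists were chosen with earlier results of these data known. Sequences of the repeats were not analysed here.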

Additional observations from a re-analysis of the deposited data

How the results depend on the processing

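With 2 libraries a group, the calls depended mainly on whether the replicate number was used as a block. In the KO against WT, where 0 members were called higher, the replicate block gave 5, DESeq2 gave 1 and dropping the filter on low counts gave 1. With both treatments against WT, where 1 was called, the block gave 6 and DESeq2 3. With both treatments against UNC0642, where 0 were called, the block gave 4 and DESeq2 1. The block changed no other call among the members. Shares over all features are not given here for DESeq2 or the other settings. Counts from them describe the dependence on settings and are no result about the members. After seeing the data, the block was also combined with DESeq2 (6, 6 and 4 members in these comparisons), with total counts as the scaling (4, 6 and 2) and with leaving out each library (1 to 4, 2 to 7 and 0 to 4). Leaving out each library without the block gave 0 in the KO, 0 to 1 with both treatments and 0 against UNC0642. With repeat counts as the denominator, the share over WT fell below 1 in the KO (0.774 for satellites and 0.743 for all members) and with both treatments (0.678 and 0.632). The cause of these changes was not tested, and fits on fewer libraries also leave less to estimate the spread.

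The direction of log2 fold changes that were not called turned when single libraries were left out. Without the block and for both treatments against the KO the ranges were -0.31 to 1.19 for MMSAT4, -0.38 to 1.10 for MurSatRep1, -0.080 to 2.66 for GSAT_MM, -6.75 to 5.65 for SYNREP_MM, -0.93 to 0.69 for IMPB_01 and -0.051 to 0.72 for RMER1A. For UNC0642 against WT they were -2.27 to 4.33 for GSAT_MM, -5.37 to 6.83 for SYNREP_MM, -0.50 to 0.62 for IMPB_01 and -0.56 to 0.11 for ZP3AR. For the KO against WT they were -4.80 to 9.59 for SYNREP_MM and -0.15 to 1.27 for IMPB_01, and for both treatments against WT -3.43 to 7.11 and -0.23 to 1.11. For both treatments against UNC0642 they were -3.99 to 6.21 for SYNREP_MM, -0.27 to 1.04 for IMPB_01 and -0.35 to 0.32 for ZP3AR. With the replicate block, fewer turned. For both treatments against the KO these were MMSAT4 (-0.026) and MurSatRep1 (-0.084) without KO replicate 2, GSAT_MM (-0.088), RMER1B (-0.025) and IMPB_01 (0.0032) without replicate 2 of the treated KO, SYNREP_MM (0.78) and IMPB_01 (0.023) without KO replicate 1, and SYNREP_MM (0.46) without replicate 1 of the treated KO. The others were IMPB_01 for UNC0642 against WT (-0.051 without WT replicate 1 and -0.13 without UNC0642 replicate 2) and ZP3AR for both treatments against UNC0642 (0.14 without UNC0642 replicate 1). Total counts in place of TMM moved the median log2 fold change of all features by -0.17 with both treatments against WT, by -0.21 against UNC0642, by -0.10 against the KO and by -0.14 for the joint change over the sum of single changes.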
